A study of Mus musculus with 4 samples.

Results

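The core circadian clock of C2C12, an established line of mouse muscle precursor cells, was followed through 10 genes in cells that received sesaminol and in cells that did not. The genes were chosen by symbol: the activators Arntl and Clock, the repressors Per1, Per2, Per3, Cry1 and Cry2, the output factors Dbp and Tef, and the repressor Bhlhe40. They are 10 of the 52636 gene rows in the deposited count table, each symbol occurred once, and all 10 had enough counts to be tested. Polyadenylated RNA had been sequenced from 2 sesaminol libraries and 2 control libraries. All cells were C2C12 held in adipogenic medium for up to 8 days; the sesaminol group also had 50 µM sesaminol (SML), a lignan of sesame seed, and the control group did not. Whether replicate libraries stem from different cultures is not stated, and the p-values therefore reflect sample-to-sample spread that could be purely technical. The sources used here do not give the hour of harvest, and each library is a single time of sampling, so the values are levels and say nothing of a rhythm.

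In the mammalian clock, ARNTL (also called BMAL1) and CLOCK form a pair that binds E-boxes in DNA and switches on the Per and Cry genes, and the PER and CRY proteins later return to block that pair. The same pair switches on Dbp, Tef and the REV-ERB genes Nr1d1 and Nr1d2, and the REV-ERB proteins in turn repress Arntl, so that Arntl transcripts and the transcripts of its targets usually peak at opposite times of day. The loop runs in nearly every tissue, skeletal muscle included, and in cultured cells the phases of single cells drift apart unless a stimulus aligns them.

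The 4 libraries held between 10283135 and 24362899 counts. Summed over 8 skeletal muscle markers, the level was 6444 and 4583 CPM (a gene's counts relative to library size, after TMM scaling) in the sesaminol libraries and 10695 and 10253 CPM in the control libraries, so muscle transcripts were present in all 4. Of these 8 markers, 4 fell with sesaminol and 0 rose, beside 3.24% and 2.72% of all genes tested. Levels were 2.03-fold lower for Myod1, 2.29-fold for Myog, 3.60-fold for Ckm and 3.06-fold for Tnnt3. In all, 7 markers were lower with the groups apart, as were 22.8% of all genes tested. The median log2 fold change of the markers was -1.05. The Myod1 and Myog calls were lost without control replicate 1 or 2, and the Ckm call with DESeq2. A list of 7 adipocyte markers summed to 20.8 and 16.1 CPM with sesaminol and 19.7 and 17.5 CPM in controls. Pparg made up most of each sum, at 16.1 and 12.2 CPM with sesaminol and 10.7 and 10.9 CPM in controls. Of the 4 adipocyte markers tested, 0 were called, a count that says little where 3.24% of all genes fell and 2.72% rose. The log2 fold change of the 4 was positive for 1 and negative for 3, with a median of -1.03. The groups were apart for Pparg in the higher direction and for Fabp4 and Cfd in the lower. Fabp4 and Cfd had only 18 to 37 counts a library. Lep, also on this list, was at 0 in sesaminol replicate 1 and control replicate 2. Sesaminol replicate 2 stood apart from the rest. A list of 4 genes of dividing cells summed to 87.1 and 22.8 CPM in sesaminol replicates 1 and 2, against 71.1 and 71.6 CPM in the controls, and mitochondrial genes took 3.36% and 1.44% of counts in sesaminol replicates 1 and 2, against 3.06% and 2.95% in the controls. The part of these differences in the results was not tested, and only some results are given without that library. Without it, the log2 fold change was -1.25 for Ckm and -0.76 for Myod1, against -1.85 and -1.02 with all 4 libraries. It was -1.49 for Tnnt3 and -1.53 for Myog, against -1.61 and -1.20. In RNA from whole cultures, fewer cells of a kind and less RNA per cell cannot be told apart.

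Of the 10 clock genes, Dbp and Per1 rose with sesaminol, 2.04-fold and 1.77-fold, and the other 8 did not pass the test (edgeR's quasi-likelihood fit over 18998 genes, with p adjusted by Benjamini-Hochberg and called under 0.05). No member fell by this test, and at an unadjusted p under 0.05 there were 4 members higher and 0 lower. Over all genes tested, 2.72% rose and 3.24% fell by the adjusted p, and 9.32% were higher and 8.54% lower at an unadjusted p under 0.05. DESeq2 and limma-voom each called 2 members higher and 0 lower, where they called 3.37% and 2.21% of all genes higher. The median log2 fold change of the 10 was 0.31, against 0.02 over all genes tested. Their levels in sesaminol and control libraries did not overlap for 6 members that were higher and 3 that were lower, and did overlap for Cry2. Such separation is common in this table: 24.2% of all genes tested were apart in the higher direction and 22.8% in the lower. The members that were higher and apart were Per1, Per2, Per3, Dbp, Tef and Bhlhe40, and those lower and apart were Arntl, Clock and Cry1.

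**Figure D1:**
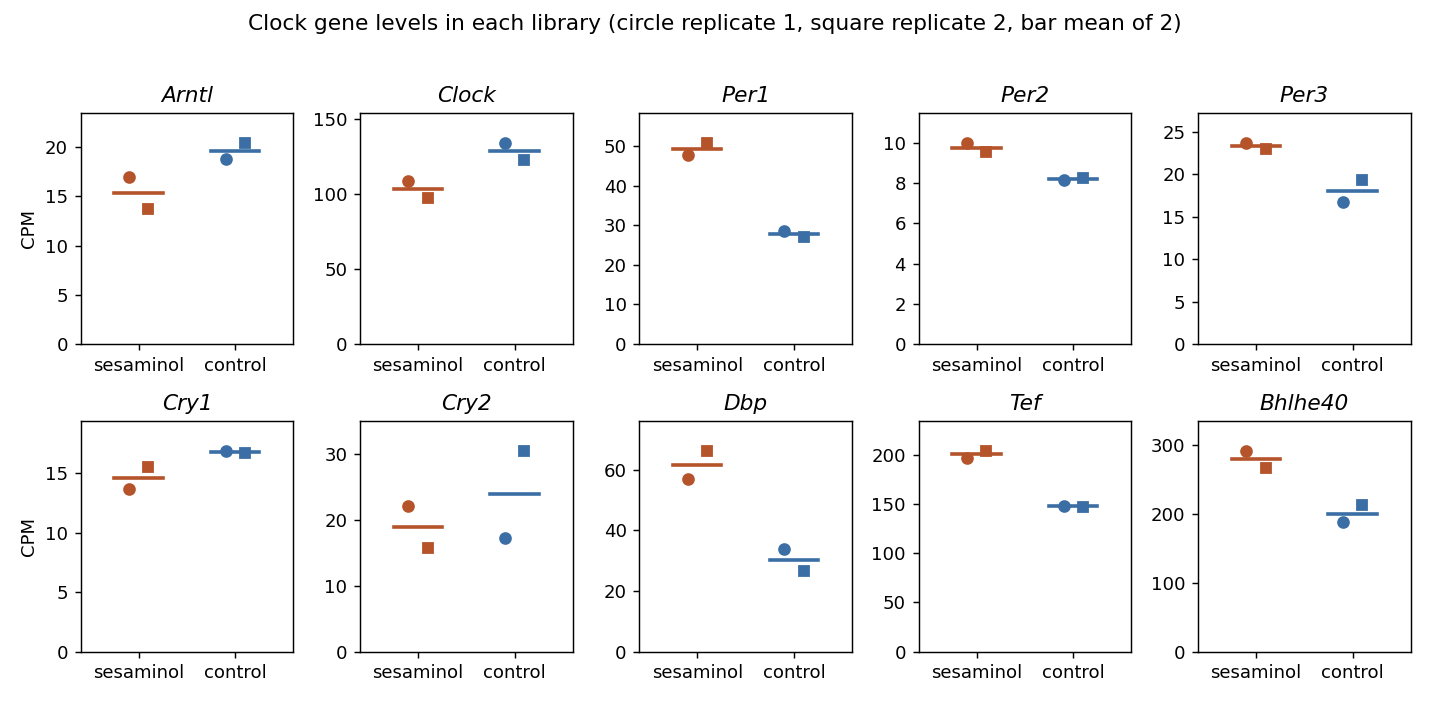
Level of each of the 10 clock genes in CPM, 1 panel a gene with the axis from 0, for sesaminol on the left and control on the right; circles are replicate 1, squares replicate 2 and bars the mean of the 2 libraries. Per1 and Dbp stand well apart between the groups, Arntl, Clock and Cry1 lie lower with sesaminol, and the Cry2 libraries of the groups overlap.

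The 2 activators were lower in both sesaminol libraries, by amounts that did not pass the test. Arntl (ENSMUSG00000055116, chromosome 7, 113207465 to 113314126, plus strand, GRCm38) encodes the partner without which the loop stops in mice. Its level was 17.0 and 13.7 CPM in the sesaminol libraries and 18.8 and 20.4 CPM in the control libraries. All sesaminol values lay below all control values, sesaminol replicate 2 being the lowest. The log2 fold change was -0.36 ± 0.21 (SE), with a 95% interval of -0.82 to 0.11 (edgeR adjusted p = 0.439). Clock (ENSMUSG00000029238, chromosome 5, 76209868 to 76304792, minus strand), which encodes the other member of the pair, had 109 and 97.5 CPM with sesaminol and 134 and 123 CPM in controls. Its log2 fold change was -0.32 ± 0.16, with an interval of -0.69 to 0.05 (edgeR adjusted p = 0.372). The libraries of the groups were again apart, and sesaminol replicate 2 was again the lowest. The span of Clock overlaps that of Ube2n-ps1 on the same strand, with no exon bases in common. Ube2n-ps1 had 35.5% of the count of Clock and stood at 42.7 and 28.8 CPM with sesaminol and 56.0 and 44.9 CPM in controls. Without sesaminol replicate 1, the log2 fold changes of Arntl and Clock were -0.56 and -0.44. Sesaminol replicate 2, which stood apart from the rest, was then the only sesaminol library. Without sesaminol replicate 2 the log2 fold changes were -0.20 and -0.23. Because Arntl and Clock were lower by similar amounts, the log2 ratio of their counts hardly differed, at -2.68 and -2.83 with sesaminol and -2.83 and -2.60 in controls.

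Among the 3 Period genes, which encode the PER repressors, Per1 rose and Per2 and Per3 did not pass. Per1 (ENSMUSG00000020893, chromosome 11, 69095217 to 69109960, plus strand) is also known as a fast-responding gene, induced through CREB and the glucocorticoid receptor. It had 47.7 and 50.7 CPM in the sesaminol libraries and 28.6 and 27.0 CPM in the control libraries. Each group was tight and the groups were far apart relative to that spread. Per1 averaged 49.2 ± 2.17 CPM with sesaminol and 27.8 ± 1.12 CPM in controls (SD, n = 2 each), a log2 fold change of 0.82 ± 0.16 (SE), with an interval of 1.37-fold to 2.28-fold (edgeR adjusted p = 0.0191). The size was nearly the same with any library left out (log2 fold changes from 0.78 to 0.86), but the call was lost without control replicate 1 or 2 (edgeR adjusted p = 0.186 and 0.295). Per2 (ENSMUSG00000055866, chromosome 1, 91415982 to 91459324, minus strand), whose loss disturbs the rhythm of mice, was the least abundant member, with 150 and 256 counts in the sesaminol libraries and 82 and 113 counts in the control libraries. That came to 9.79 ± 0.354 CPM with sesaminol, replicate 2 being the lower at 9.54 CPM, and 8.20 ± 0.0771 CPM in controls (SD, n = 2 each). Its groups were apart, but the log2 fold change of 0.26 had an interval of -0.32 to 0.83 (edgeR adjusted p = 0.709), which includes both no change and the estimate for Per1. Per3 (ENSMUSG00000028957, chromosome 4, 151003652 to 151044665, minus strand), which mice can lack with little effect on the core rhythm, had 23.7 and 23.0 CPM with sesaminol and 16.8 and 19.4 CPM in controls. The 2 sesaminol libraries lay close together and above both controls, and the log2 fold change was 0.36 ± 0.19, with an interval of -0.06 to 0.79 (edgeR adjusted p = 0.368). The span of Per3 is crossed on the same strand by Camta1, which shares no exon bases with it, had 802% of its count and stood at 198 and 190 CPM with sesaminol and 139 and 133 CPM in controls.

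Among the Period transcripts, Per1 made up more relative to Per2 in both sesaminol libraries. The log2 ratio of Per1 to Per2 counts was 2.24 and 2.41 in the sesaminol libraries and 1.81 and 1.71 in the control libraries, a difference of 0.57 or a 1.48-fold larger ratio, with the groups apart. The ratio of Per3 to Per2 was 1.24 and 1.27 with sesaminol and 1.04 and 1.23 in controls, a difference of 0.12 that is within the spread of the controls (SD 0.14). With 2 libraries against 2, an exact permutation test of such a ratio, two-sided, cannot give a p under 0.333, so these are descriptions.

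The promoter windows of Per1 and Per3 are printed because Per1 rose and because both hold letters of motifs through which clock factors act in general. They come from RefSeq (GRCm38.p6) and run from 250 bases before to 50 after an annotated start, 5′ to 3′ on the gene's strand. Capitals mark an E-box, CACGTG, in Per1, which has another annotated start downstream whose window holds none, and the D-boxes, TTATGTAA, in Per3, which DBP and TEF bind in general.
Per1, chr11:69098699-69098998, plus strand: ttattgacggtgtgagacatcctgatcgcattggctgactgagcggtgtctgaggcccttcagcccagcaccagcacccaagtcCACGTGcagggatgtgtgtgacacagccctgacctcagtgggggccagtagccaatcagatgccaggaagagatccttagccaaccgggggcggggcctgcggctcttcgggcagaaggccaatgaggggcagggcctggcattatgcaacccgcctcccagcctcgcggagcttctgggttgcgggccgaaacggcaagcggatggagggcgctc
Per3, chr4:151044616-151044915, minus strand: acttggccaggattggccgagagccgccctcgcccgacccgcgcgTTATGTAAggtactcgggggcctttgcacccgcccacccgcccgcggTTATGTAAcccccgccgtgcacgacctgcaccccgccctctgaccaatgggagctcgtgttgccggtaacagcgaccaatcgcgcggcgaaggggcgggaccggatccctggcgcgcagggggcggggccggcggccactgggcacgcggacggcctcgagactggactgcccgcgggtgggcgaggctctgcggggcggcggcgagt
Counted by the first base of the match from the start, the Per1 E-box lies at -166 and the Per3 D-boxes at -205 and -158. Of 32817 RefSeq windows of this length, 7.15% hold CACGTG and 0.935% hold TTATGTAA, searched on both strands. Windows were found for 8 of the 10 members, 13 windows in all, and not for Per2 and Bhlhe40. CACGTG was found in 4 windows, of Per1, Cry1 and Tef, and TTATGTAA in that of Per3. The variants CACGTT and TTACGTAA, the cyclic AMP response element TGACGTCA and the core AGGTCA that ROR and REV-ERB proteins bind were searched as well; in the members' windows no match of one overlapped a match of another. They occur in 4.69%, 0.119%, 1.79% and 16.3% of all windows. CACGTT was found in Cry1 and Cry2, AGGTCA in 1 window each of Arntl, Clock and Per1, and TTACGTAA and TGACGTCA in no member's window. A match is a description of letters and was not tied to a factor in these cells.

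The Cryptochrome genes, which encode the strongest repressors of the loop, did not pass the test. Cry1 (ENSMUSG00000020038, chromosome 10, 85131700 to 85185064, minus strand) had 13.7 and 15.5 CPM in the sesaminol libraries and 16.9 and 16.7 CPM in the control libraries. The groups were apart, by less than the distance between the sesaminol libraries, and the log2 fold change was -0.20 ± 0.20, with an interval of -0.66 to 0.26 (edgeR adjusted p = 0.719). Cry2 (ENSMUSG00000068742, chromosome 2, 92403646 to 92434043, minus strand) had 22.1 and 15.8 CPM with sesaminol and 17.3 and 30.5 CPM in controls. It was the only member whose groups overlapped, with control replicate 2 the highest of the 4 libraries and control replicate 1 among the low ones. Its log2 fold change was -0.35 ± 0.28, with an interval of -0.99 to 0.30 (edgeR adjusted p = 0.628). It was 0.13 without control replicate 2, -0.70 without control replicate 1 and -0.65 without sesaminol replicate 1. Cry2 shares 295 exon bases with the opposite-strand gene D930015M05Rik, whose count was 31.3% of its own. The kit named in the labels' protocols does not record strand, so reads of such overlapping opposite-strand genes cannot be told apart. The log2 ratio of Cry1 to Cry2 was -0.69 and -0.03 with sesaminol and -0.03 and -0.87 in controls, so no shift between the Cryptochromes was detectable. The Cry1 window is shown because it carries both an E-box and the variant CACGTT (capitals, the variant on the opposite strand as AACGTG).
Cry1, chr10:85185005-85185304, minus strand: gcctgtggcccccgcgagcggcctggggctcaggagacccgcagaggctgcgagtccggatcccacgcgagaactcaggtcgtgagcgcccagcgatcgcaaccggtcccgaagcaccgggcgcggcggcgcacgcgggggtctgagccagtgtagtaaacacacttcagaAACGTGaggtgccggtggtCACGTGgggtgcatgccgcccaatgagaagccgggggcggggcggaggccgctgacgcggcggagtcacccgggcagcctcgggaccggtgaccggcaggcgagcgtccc
These matches begin at -60 and -79 from the start.

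Dbp, the output gene, showed the largest change among the 10. Dbp (ENSMUSG00000059824, chromosome 7, 45705088 to 45710203, plus strand) encodes a PAR bZIP factor that is among the most strongly cycling transcripts of mouse tissues and carries the rhythm to D-box genes. It had 56.8 and 66.2 CPM in the sesaminol libraries and 33.8 and 26.7 CPM in the control libraries. Both sesaminol values were well above both control values. The means were 61.5 ± 6.67 CPM with sesaminol and 30.2 ± 4.98 CPM in controls (SD, n = 2 each), a log2 fold change of 1.03 ± 0.18 (SE), with an interval of 1.53-fold to 2.72-fold (edgeR adjusted p = 0.0135). Dbp was still called without control replicate 1, sesaminol replicate 1 or sesaminol replicate 2 (log2 fold changes of 1.19, 1.09 and 0.92), but with control replicate 2 left out it was no longer called (0.86, edgeR adjusted p = 0.211). Its end overlaps that of Sphk2, a sphingosine kinase gene on the opposite strand, with 539 exon bases in common and a Sphk2 count of 98.1% of that of Dbp. Sphk2 had 53.9 and 54.6 CPM with sesaminol and 41.1 and 42.5 CPM in controls and was not called (log2 fold change 0.38 ± 0.16, edgeR adjusted p = 0.248). How reads in the shared bases were assigned was not tested.

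Tef (ENSMUSG00000022389, chromosome 15, 81802421 to 81826863, plus strand), which encodes a related PAR bZIP factor, had 197 and 204 CPM in the sesaminol libraries and 148 and 147 CPM in the control libraries. The libraries of each group nearly coincided and the groups were apart. The log2 fold change of 0.44 ± 0.16 had an interval of 0.07 to 0.81 and did not pass after adjustment (edgeR adjusted p = 0.195). It was 0.42 without sesaminol replicate 1 and 0.42 without sesaminol replicate 2. The log2 ratio of Dbp to Tef counts was -1.79 and -1.62 with sesaminol and -2.13 and -2.46 in controls, 0.59 higher with the groups apart. The Dbp window and that of the downstream start of Tef are shown as the output pair. Tef has an E-box (capitals, beginning at -138), and its upstream window has another, at -127, while the Dbp window holds none of the 6 letter strings searched, which says nothing of sites elsewhere in the gene.
Dbp, chr7:45704997-45705296, plus strand: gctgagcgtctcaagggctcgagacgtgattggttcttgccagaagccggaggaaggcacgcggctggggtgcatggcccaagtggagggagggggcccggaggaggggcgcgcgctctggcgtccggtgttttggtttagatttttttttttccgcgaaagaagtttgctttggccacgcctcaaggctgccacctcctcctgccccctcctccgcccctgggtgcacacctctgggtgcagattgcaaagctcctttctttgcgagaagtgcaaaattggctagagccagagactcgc
Tef, chr15:81811164-81811463, plus strand: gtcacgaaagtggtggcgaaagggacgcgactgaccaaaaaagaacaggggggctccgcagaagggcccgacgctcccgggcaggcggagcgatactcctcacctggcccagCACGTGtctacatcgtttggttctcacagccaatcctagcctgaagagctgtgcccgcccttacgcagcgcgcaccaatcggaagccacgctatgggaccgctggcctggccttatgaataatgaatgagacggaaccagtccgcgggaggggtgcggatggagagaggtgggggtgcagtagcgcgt

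Bhlhe40 (ENSMUSG00000030103, chromosome 6, 108660629 to 108666925, plus strand) encodes DEC1, which competes for E-boxes, is itself driven by ARNTL and CLOCK, and is also known as a target of hypoxia-inducible factor. It was the most abundant member, with 292 and 267 CPM in the sesaminol libraries and 188 and 213 CPM in the control libraries. The groups were apart, and the log2 fold change of 0.48 ± 0.18 had an interval of 0.07 to 0.89 (edgeR adjusted p = 0.192). The log2 fold change was 0.55 without sesaminol replicate 2 and 0.37 without sesaminol replicate 1. An opposite-strand gene, 0610040F04Rik, shares 118 exon bases with it and had 9.40% of its count.

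Scaled by exon length, the members covered a wide range of levels. Bhlhe40 stood at 59.4 ± 3.67 CPM per kb with sesaminol and 42.6 ± 3.74 in controls, and Per2 at 1.67 ± 0.0604 CPM per kb with sesaminol and 1.40 ± 0.0132 in controls (SD, n = 2 each). The order by mean level with sesaminol was Bhlhe40, Tef, Dbp, Per1, Clock, Cry1, Cry2, Per3, Arntl and Per2, and no neighbours in it overlapped between libraries. In the controls Clock and Cry1 came before Per1, and Arntl before Per3, and there the neighbours Dbp and Clock, Cry1 and Per1, and Per1 and Cry2 overlapped. Per1 ranked above Clock with sesaminol and below it in controls: Per1 had 8.47 and 9.01 CPM per kb and Clock 7.95 and 7.10 CPM per kb in the sesaminol libraries, against 5.08 and 4.80 for Per1 and 9.75 and 8.99 for Clock in the control libraries. Exon length was taken over all annotated transcripts, so a gene with long rare isoforms is set too low on this scale.

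**Figure D2:**
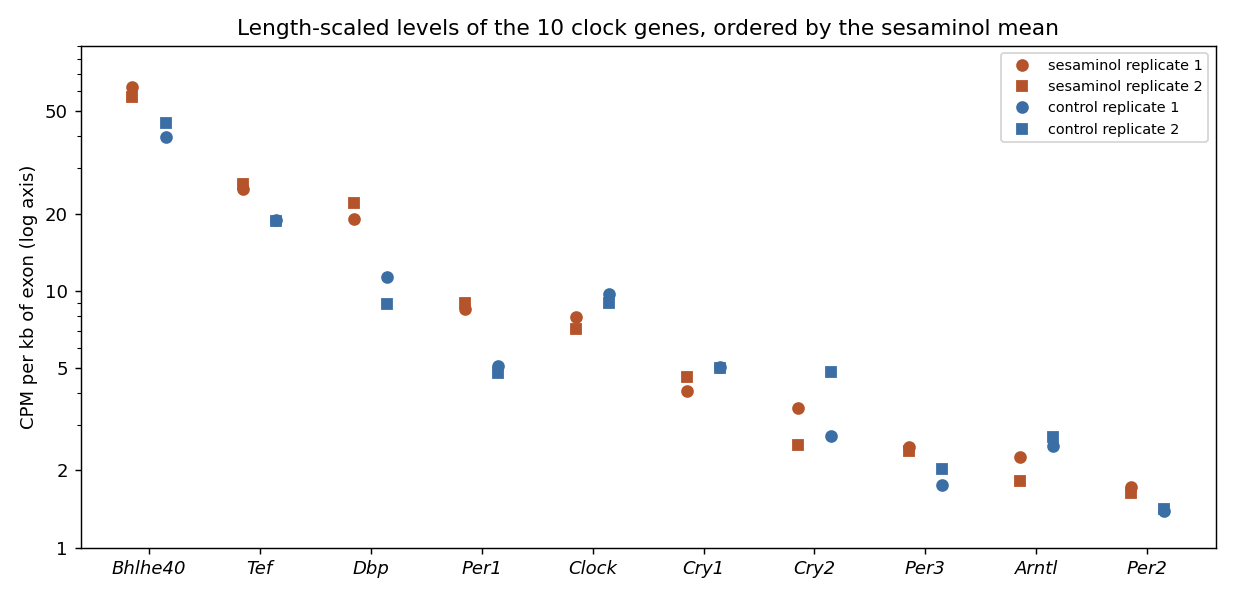
Levels of the 10 clock genes in CPM per kb of exon on a log axis, ordered by the sesaminol mean, with 2 sesaminol libraries left of 2 control libraries at each gene. Bhlhe40 is highest and Per2 lowest in both groups, and Per1 lies above Clock with sesaminol and below it in controls.

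The rest of the clock network was described from 27 other genes in 3 lists. Of the 25 tested, 2 rose and 0 fell, where 2.72% and 3.24% of all genes did so, and DESeq2 and limma-voom also called 2 higher and 0 lower. At an unadjusted p under 0.05, 6 were higher and 2 lower, beside 9.32% and 8.54% of all genes, so the lower count was near the background. The median log2 fold change was 0.20. Both that rose belonged to the 7 genes that cycle in many mouse tissues. Wee1, encoding a kinase that holds back entry into mitosis and is a known E-box gene of the clock, had 43.5 and 69.4 CPM in the sesaminol libraries and 19.2 and 19.6 CPM in the control libraries, 2.92-fold higher (log2 fold change 1.55 ± 0.23, edgeR adjusted p = 0.00619). Sesaminol replicate 2, which had the low level of dividing-cell genes, was the higher one, and without it the log2 fold change was 1.17. Nampt, encoding the enzyme that limits NAD salvage and likewise known as a clock output, had 75.5 and 86.5 CPM with sesaminol and 30.0 and 29.8 CPM in controls, 2.71-fold higher (edgeR adjusted p = 0.00196). Usp2, encoding a deubiquitinase, went the other way without passing, at 26.1 and 21.8 CPM with sesaminol and 33.4 and 39.9 CPM in controls (edgeR adjusted p = 0.0990), and it shares 200 exon bases with Gm49380, which had 350% of its count.

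Of 12 further loop genes, 11 were tested and none was called by edgeR, DESeq2 or limma-voom; at an unadjusted p under 0.05, 4 were higher and 1 was lower, beside 9.32% and 8.54% of all genes. The 3 most abundant by mean CPM over all 4 libraries were Bhlhe41, Nr1d1 and Nr1d2; in the controls alone Nfil3 exceeded Nr1d2. Bhlhe41, encoding DEC2, a factor related to DEC1, had 369 and 350 CPM in the sesaminol libraries and 252 and 254 CPM in the control libraries (log2 fold change 0.51 ± 0.18, edgeR adjusted p = 0.169). Bhlhe41 shares 1280 exon bases with the opposite-strand gene Gm43909, which had 31.9% of its count. Nr1d1, encoding REV-ERB alpha, had 132 and 116 CPM with sesaminol and 86.4 and 93.3 CPM in controls (0.46 ± 0.17, edgeR adjusted p = 0.171), and it shares 263 exon bases with Thra on the opposite strand, which had 116% of its count. Nr1d2, encoding REV-ERB beta, had 52.8 and 71.8 CPM with sesaminol and 32.0 and 43.4 CPM in controls (0.72 ± 0.21, edgeR adjusted p = 0.0970). For these 3 the groups were apart in the higher direction. Nfil3, encoding a repressor that competes for D-boxes, was apart in the lower direction, with 45.9 and 29.9 CPM with sesaminol and 52.8 and 53.0 CPM in controls (log2 fold change -0.49 ± 0.21, edgeR adjusted p = 0.278). Hlf, the third PAR bZIP gene, had 2 and 29 counts in the sesaminol libraries and 3 and 8 in the control libraries and was not tested.

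Another 8 genes encode kinases and ubiquitin ligases that set the stability of PER and CRY proteins. Of the 7 tested, 0 were called by edgeR, DESeq2 or limma-voom, and 0 had an unadjusted p under 0.05. Over all genes tested, edgeR called 2.72% higher and 3.24% lower, and 9.32% and 8.54% were so at the unadjusted p. With only 7 genes, a count of 0 says little. The groups were apart for 2 in the higher and 2 in the lower direction, beside 24.2% and 22.8% of all genes. The median log2 fold change of the 7 was 0.06. The 3 most abundant were all casein kinase 1 genes. Csnk1d stood at 170 and 172 CPM with sesaminol and 162 and 167 CPM in controls, a log2 fold change of 0.06 with an interval of -0.31 to 0.43. Csnk1e stood at 206 and 161 CPM with sesaminol and 206 and 217 CPM in controls, and Csnk1a1 at 365 and 374 CPM with sesaminol and 413 and 505 CPM in controls.

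**Figure D3:**
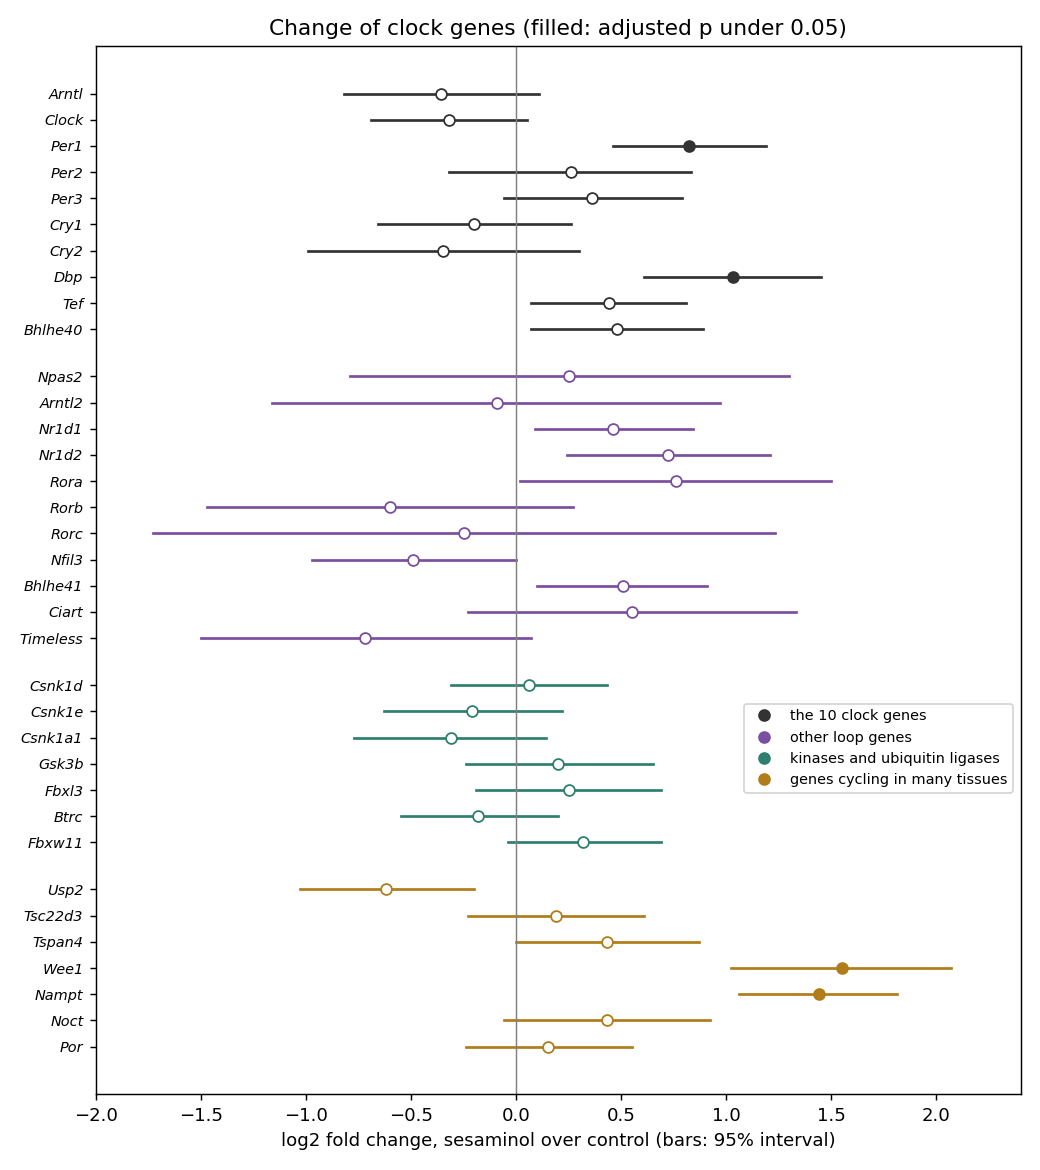
Log2 fold change of sesaminol over control for the 10 clock genes and the 25 other clock network genes tested, with bars for 95% intervals and filled points for adjusted p under 0.05. Dbp, Per1, Wee1 and Nampt are filled, and the intervals of all 7 kinase and ligase genes cross 0.

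Genes that share known inducers with members were also read. Of 10 genes induced by hypoxia, as Bhlhe40 can be, 6 rose and 0 fell, beside 2.72% and 3.24% of all genes, with a median log2 fold change of 1.21. The genes that rose were Ndrg1 (8.03-fold), Adm (4.36-fold), Slc2a1 (3.68-fold), Pfkfb3 (2.61-fold), Bnip3 (2.50-fold) and Car9 (2.15-fold). The 4 not called had log2 fold changes of 0.94 (Ankrd37), 0.42 (P4ha1), 0.12 (Vegfa) and 0.02 (Egln3). For Vegfa and Egln3 the groups overlapped. Car9 was no longer called without control replicate 1 or 2 (edgeR adjusted p = 0.0796 and 0.119), nor Pfkfb3 without control replicate 1 (edgeR adjusted p = 0.0650). Ndrg1, Slc2a1, Bnip3 and Car9 share exon bases with opposite-strand genes, as does Mt2 below, so their counts are uncertain to that extent. Of 8 genes induced by glucocorticoids, as Per1 can be, 1 rose and 1 fell, beside 2.72% and 3.24% of all genes. The metallothionein gene Mt2 rose 6.22-fold, and Errfi1, a feedback inhibitor of EGF receptors, fell by 0.65 on the log2 scale. The median of the 8 was -0.01. At an unadjusted p under 0.05, 2 of them were higher and 2 lower, beside 9.32% and 8.54% of all genes. The Errfi1 call (edgeR adjusted p = 0.0474) was lost with DESeq2 and limma-voom (adjusted p = 0.0516 and 0.0535), with scaling by library size alone (edgeR adjusted p = 0.0982) and without control replicate 1 or 2 (edgeR adjusted p = 0.309 and 0.522). Fkbp5, a widely used reporter of glucocorticoid action, had 14.9 and 20.4 CPM with sesaminol and 16.5 and 19.4 CPM in controls. Sgk1 was lower with the groups apart (log2 fold change -0.39, edgeR adjusted p = 0.231), and Dusp1 was higher with the groups apart (0.38, edgeR adjusted p = 0.277). Of 10 CREB-induced genes with a row, 0 were called by edgeR, DESeq2 or limma-voom. At an unadjusted p under 0.05, 2 were higher and 1 was lower, beside 9.32% and 8.54% of all genes. The 3 most abundant by mean CPM over all 4 libraries, although Gem exceeded the third of them in controls, were Pde4d, with 329 and 303 CPM with sesaminol and 373 and 345 CPM in controls, Sik1, with 79.3 and 67.8 CPM with sesaminol and 87.4 and 98.3 CPM in controls, and Nr4a1, with 54.5 and 38.5 CPM with sesaminol and 31.6 and 30.7 CPM in controls. The part of these inducers in the levels of Bhlhe40 and Per1 was not tested.

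The calls among the 10 clock genes depended on which libraries entered the fit. Without control replicate 1, Dbp alone was called (0.786% of all genes rose), and without control replicate 2 no member was (0 of 10; 0.847% of all genes rose). Without sesaminol replicate 1, Per1, Dbp and Tef were called higher and Arntl, Clock and Cry2 lower, in a fit that called 9.36% of all genes higher and 13.3% lower. Without sesaminol replicate 2, Per1, Dbp, Tef and Bhlhe40 were called higher and none lower, where 8.06% of all genes were called higher. The fit without sesaminol replicate 2 also called genes lower among all genes tested. With only 10 members, the lack of a lower member there says little. Each of these fits took the spread from the group that still had 2 libraries and applied it to the single one. The direction was the same in all 15 alternatives for every member except Cry2, which reversed in 1 of them.

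**Figure D4:**
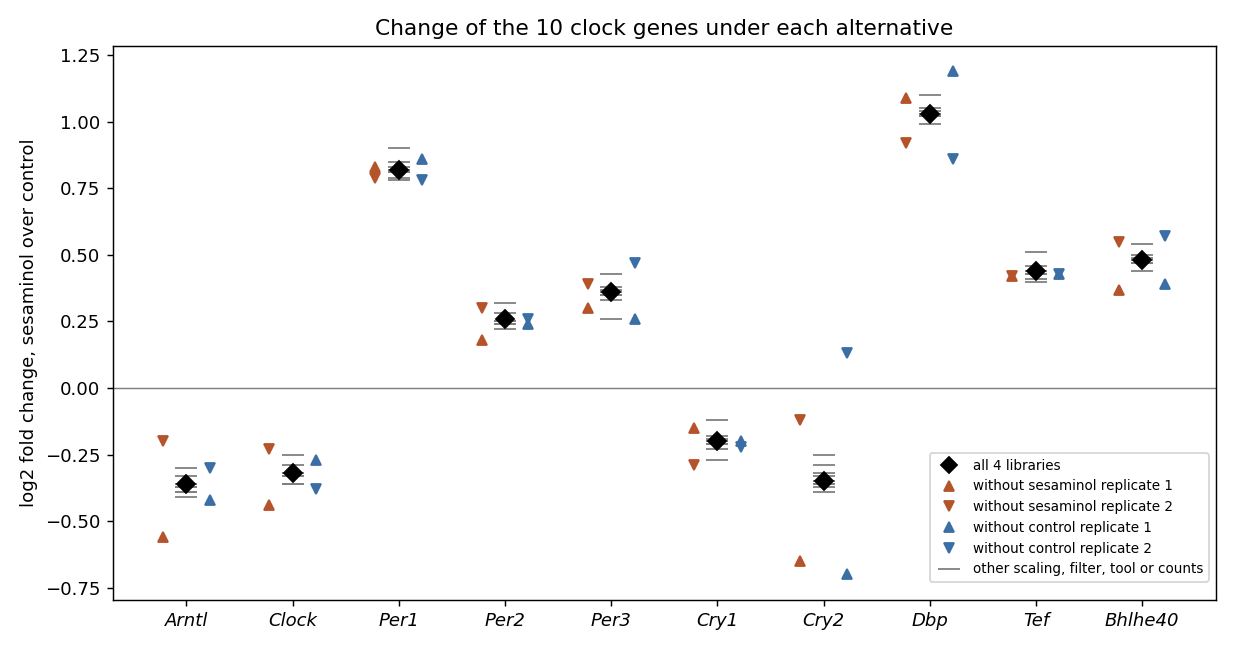
Log2 fold change of sesaminol over control for each of the 10 clock genes with all 4 libraries (diamonds), with 1 library left out (triangles, sesaminol left out to the left and control left out to the right of the diamond) and under other scalings, filters, tools or counts (dashes). Per1 lies between 0.78 and 0.90 throughout, Dbp between 0.86 and 1.19, and Cry2 is the only gene that crosses 0.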

How the data were processed

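Libraries were made from poly(A)-selected RNA of C2C12 cells, per the labels' protocols. The deposited table gives raw read counts per gene for 4 libraries; per the submitters' processing notes, FastQC, MultiQC, fastp, Picard, featureCounts and edgeR were used with build GRCm38. The sources used here do not name the aligner, strand setting or annotation release. Between 75.8% and 79.6% of the count values in the range 1 to 12 were even numbers, depending on the library, which is why halved counts were tried. Library totals were 15807638 and 24362899 with sesaminol and 10283135 and 14083165 in controls, and no member had fewer than 82 counts in a library.

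Genes kept by filterByExpr (minimum count 10, minimum total 15) were scaled by TMM and tested in R 4.3.3 with the quasi-likelihood functions of edgeR 4.0.16, two-sided, without covariates, with Benjamini-Hochberg adjustment over 18998 genes and a threshold of 0.05. Standard errors are the log2 fold change divided by the square root of F, and intervals use the fit's degrees of freedom. CPM use TMM effective library sizes. Positions and exon lengths are from GENCODE M21, to which 52489 of 52636 identifiers matched. The procedure was run on simulated counts drawn from the fit's own means and spread, which checks the code and not these results. Named genes are all 10 members and, from each other list, the genes called and, where few were, the 3 most abundant. Usp2, Rora, Hlf, Nfil3, Gem, Fkbp5, Sgk1, Dusp1, Fabp4, Cfd, Sphk2 and other overlapping genes were chosen with their values in view. The members and lists were chosen with earlier results of these data known. Alternatives were DESeq2 1.42.0, limma-voom (limma 3.58.1), other scalings, thresholds and filters, the replicate number as a block, halved or thinned counts, and 3 of the 4 libraries. Replicate numbers were not taken to pair libraries.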

Additional observations from a re-analysis of the deposited data

How the results depend on the processing

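With 1 library left out at a time, the number of all genes called ranged from 163 to 1918 higher and from 276 to 2724 lower, against 516 and 615 with all 4 libraries. It was 928 and 985 with no filter on low counts, 893 and 982 with the replicate block, and 785 higher at an adjusted p threshold of 0.1; the cause of these differences was not tested. The block left the member calls at 2 higher and 0 lower. Replicates 1 and 2 share only a number: the differences between replicates 1 and 2 in sesaminol and control libraries correlated at -0.054 across genes, which are not independent. Members called ranged from 0 to 4 higher and from 0 to 3 lower with 1 library left out. Among the other clock network genes, 2 to 8 were called higher and 0 to 5 lower with 1 library left out, and 1 was called lower both with the replicate block and at a threshold of 0.1. Cry2 had a log2 fold change of 0.13 without control replicate 2, against -0.35 with all libraries and -0.70 without control replicate 1. Each of the remaining scalings, filters, tools and count treatments called 2 members higher and 0 lower. Scaling by library size alone moved the median log2 fold change of all genes from 0.02 to 0.09. Standard errors of the members' log2 fold changes did not follow depth alone: they were 0.25 for Per2, with 82 to 256 counts a library, 0.28 for Cry2, with 174 to 425, and 0.16 for Tef, with 1494 to 5478.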
